A study of Mus musculus with 6 samples.

Results

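The genes described here are 31 genes of antigen display and innate defence, 10 of the MHC class II pathway and 21 of the complement system, among the 23420 genes of the deposited table of counts. They were chosen by symbol from the known membership of each pathway, and all 31 were in the table, where C1s is the older symbol of C1s1. The RNA came from 6 aortic roots, the first part of the aorta, which holds the aortic valve, and was measured by bulk RNA sequencing. All mice were C57BL6/J and 12 months old, and had moved at 4 months from standard chow to TestDiet 5TJT, a high-cholesterol diet, which they ate for 8 months. Of the 6 roots, 3 were labelled Sost-/- (both copies of the sclerostin gene knocked out, by an allele that the labels do not describe) and 3 were labelled Sost+/+ (wild type), and libraries are named below by label and replicate, as Sost-/- 1 or Sost+/+ 3. The question put to these immune genes is whether their activity in the root, under a diet that favours valve disease, goes with the genotype.

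Several facts of the whole series bear on each value below. Libraries held 37023586 to 48172863 counts. The targeted gene went against the labels: Sost had 2284, 1063 and 513 counts in libraries labelled Sost-/-, against 354, 621 and 274 in libraries labelled Sost+/+ (log2 fold change 1.56, SE 0.48, edgeR adjusted p = 0.124), so each direction given here is one between labels. Counts per gene cannot show which part of the locus the reads come from. Markers of smooth muscle and of heart muscle, both abundant in these roots, differed between the groups as well. The 12 smooth muscle markers summed to 4211 to 6409 CPM (counts per 1e6 counts of the library, on library sizes scaled by the TMM method) in libraries labelled Sost-/- and 1420 to 2797 CPM in libraries labelled Sost+/+, with 10 of 12 called higher. The 14 cardiomyocyte markers summed to 59320 to 73610 CPM in libraries labelled Sost-/- and 87990 to 93980 CPM in libraries labelled Sost+/+, with 2 of 14 called lower. DESeq2 called 10 of the 12 and 10 of the 14. The part of these differences in the results below was not tested. RNA of the whole root was measured, so fewer cells of a type and less RNA per cell cannot be told apart.

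MHC class II molecules display peptides from ingested proteins to CD4 T cells. Their alpha and beta chains assemble on the invariant chain Cd74, the editor H2-DM exchanges the remnant of that chain for peptide, H2-O restrains H2-DM, and the coactivator Ciita switches the genes on together, mainly in dendritic cells, B cells and macrophages. Complement is a cascade of plasma and tissue proteins that tags particles for uptake and punctures membranes. C1 and the lectin pathway proteases start it, C3 is its hub, the alternative pathway amplifies it, and a set of inhibitors shields the body's own cells. Macrophages are known as the main source of C1q in tissue, and stromal cells and the liver make many of the other components.

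All 10 class II genes had a log2 fold change below 0 in libraries labelled Sost-/-, from -0.92 to -0.43 with a median of -0.70, and none passed the test. Over all 15096 genes tested, the median was 0.0066, with 48.7% of fold changes below 0 and 51.3% above it. Genes were tested with edgeR's quasi-likelihood fit at an adjusted p (Benjamini-Hochberg) of 0.05, which called 385 genes (2.55%), of which 329 were higher (2.18%) and 56 lower (0.371%). An unadjusted p under 0.05 was found for 7 of the 10 class II genes, each with the lower level under the Sost-/- label, against 20.2% of all genes tested in either direction and 8.62% in that one. The count of 7 was 1 without Sost+/+ 3, 2 without Sost-/- 1 and 3 without Sost-/- 2. It was 6 without Sost-/- 3, 6 without Sost+/+ 1, 9 without Sost+/+ 2 and 0 without both Sost-/- 1 and Sost+/+ 3. Over all genes, 3361 of 15358 had such a p without Sost+/+ 3 and 3051 of 15323 without Sost-/- 1. The same held for 2727 of 15294 without Sost-/- 2 and 3439 of 15233 without both, against 3056 of 15096 with all libraries. DESeq2 called 0 of the 10. The 10 genes move through the same libraries and are no independent set of observations.

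The genes of the classical alpha and beta chains stood lowest in Sost-/- 1 and highest in Sost+/+ 3. H2-Eb1 is counted with them by its class, although the strain used here cannot express its partner, the alpha chain of I-E. Its RNA is therefore no measure of displayed I-E. H2-Aa, the alpha chain of the I-A molecule, is encoded on chromosome 17, minus strand, at 34282744 to 34287823 (mm10, GENCODE gene ENSMUSG00000036594.15). H2-Aa was at 106, 168 and 175 CPM in libraries labelled Sost-/- and at 221, 146 and 392 CPM in libraries labelled Sost+/+ (log2 fold change -0.76, SE 0.32, edgeR adjusted p = 0.2296). The groups overlapped, since Sost+/+ 2 lay below 2 of the 3 libraries labelled Sost-/-. H2-Ab1, the beta chain of I-A (chromosome 17, 34257689 to 34269419, plus strand), was at 107, 177 and 166 CPM in libraries labelled Sost-/-, against 261, 172 and 418 CPM in libraries labelled Sost+/+. Its log2 fold change was -0.92 (SE 0.30, edgeR adjusted p = 0.1399), the farthest from 0 among the 10. H2-Eb1, the beta chain of I-E (chromosome 17, 34305867 to 34316674, plus strand), was at 111, 184 and 188 CPM in libraries labelled Sost-/- and at 274, 180 and 440.1 CPM in libraries labelled Sost+/+ (log2 fold change -0.89, SE 0.30, edgeR adjusted p = 0.1556). The 3 chains varied less in their proportions to each other than in their levels. Their summed level ran from 324 CPM in Sost-/- 1 to 1251 CPM in Sost+/+ 3, a 3.86-fold range, whereas the ratio of H2-Eb1 to H2-Ab1 stayed between 1.04 and 1.13. The ratio of H2-Aa to H2-Ab1 was 0.992, 0.947 and 1.05 in libraries labelled Sost-/- and 0.849, 0.849 and 0.939 in libraries labelled Sost+/+. That ratio had a 1.24-fold range and did not overlap between the groups, and no background share of such ratios was computed.

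**Figure D1:**
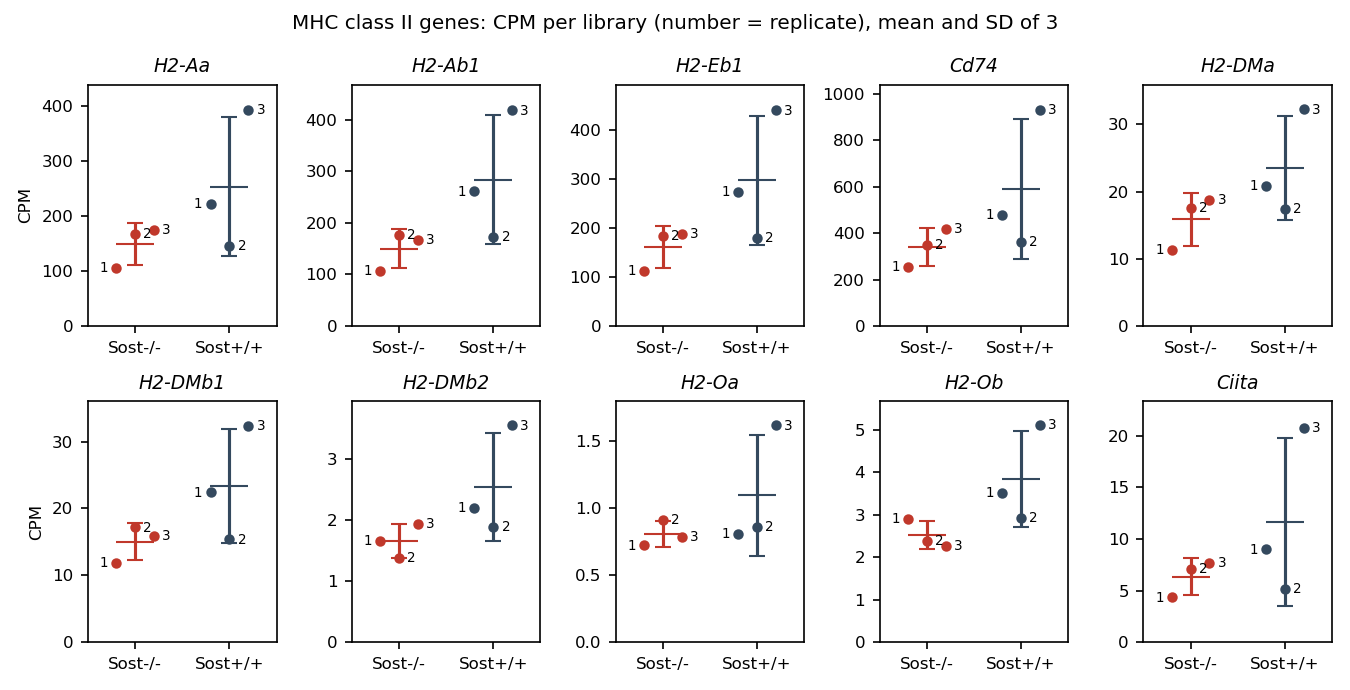
Levels of the 10 MHC class II genes in CPM (y axis, from 0) in libraries labelled Sost-/- and Sost+/+. Each point is 1 library with its replicate number, and the bars are the mean and SD of 3. Sost+/+ 3 is the highest library in each of the 10 panels, and Sost-/- 1 is the lowest in 8.

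Class II genes share a promoter module on which Ciita is recruited, an X box followed by a Y box at a fixed distance, and the Y box carries the letters ATTGG. Promoter sequences from RefSeq (build GRCm38.p6) were found for 7 of the 10 genes, and 6 of them held ATTGG with GCAAC or ATGATG, letters of the X box, within the 45 bases before it on the gene's own strand. Sost+/+ 3 was the highest library for all 10 class II genes, so it does not set these 6 apart. A window of each of the 6 is shown as 60 bases in lower case with those letters in capitals:
H2-Aa, chr17:34287852-34287911, minus strand: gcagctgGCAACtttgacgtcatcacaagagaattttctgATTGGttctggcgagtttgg
H2-Eb1, chr17:34305768-34305827, plus strand: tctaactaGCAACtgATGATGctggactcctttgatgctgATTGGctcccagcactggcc
H2-DMb1, chr17:34153090-34153149, plus strand: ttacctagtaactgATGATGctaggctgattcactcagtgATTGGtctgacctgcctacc
H2-DMb2, chr17:34145119-34145178, plus strand: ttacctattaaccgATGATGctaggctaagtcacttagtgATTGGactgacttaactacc
H2-Oa, chr17:34092296-34092355, plus strand: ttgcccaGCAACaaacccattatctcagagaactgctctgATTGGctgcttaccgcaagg
H2-Ob, chr17:34238808-34238867, plus strand: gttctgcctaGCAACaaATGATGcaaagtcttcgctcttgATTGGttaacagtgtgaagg

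In these windows ATTGG began 43 to 90 bases before the start of transcription annotated in RefSeq. GENCODE starts H2-DMb1 at 34153072 and H2-DMb2 at 34143307, so their windows lie inside the GENCODE genes. The window of H2-Oa spans its GENCODE start at 34092340. The combination was present in 0.935% of the 32851 promoters of the table and in 0 of the 14 complement genes that have one there. Taken alone and on both strands, in the 250 bases before the start, ATTGG (reverse CCAAT) was found in 33.8% of all promoters, GCAAC (reverse GTTGC) in 29.9% and ATGATG (reverse CATCAT) in 9.39%. The seventh class II gene with a promoter in the table, H2-DMa, held ATTGG without that arrangement. The letters were picked while reading these promoters, and a match describes the sequence only.

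Cd74 had the highest level per length among the class II genes. With exon lengths from GENCODE M21 its mean was 203 CPM per kilobase in libraries labelled Sost-/- and 352 CPM per kilobase in libraries labelled Sost+/+, against 82.9 CPM per kilobase in libraries labelled Sost-/- and 153 CPM per kilobase in libraries labelled Sost+/+ for H2-Eb1, the next. Cd74 is on chromosome 18 from 60803848 to 60812652, apart from the H2 genes on chromosome 17. It was at 253, 351 and 417 CPM in libraries labelled Sost-/- and at 479, 362 and 930.4 CPM in libraries labelled Sost+/+ (log2 fold change -0.79, SE 0.32, edgeR adjusted p = 0.2087). As with the chains, the groups overlapped through Sost+/+ 2 while Sost+/+ 3 stood far above the rest. The ratio of Cd74 to the sum of the 3 chains lay between 0.634 and 0.787 over the 6 libraries.

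The peptide loading genes followed at lower levels. H2-DMa, the alpha chain of the editor, which the annotation overlaps with Brd2 on the opposite strand, averaged 15.9 ± 3.96 CPM in libraries labelled Sost-/- and 23.5 ± 7.73 CPM in libraries labelled Sost+/+ (SD, n = 3 each), a log2 fold change of -0.57 (SE 0.24, edgeR adjusted p = 0.2329). H2-DMb1, a beta chain of the same molecule, averaged 15.0 ± 2.76 CPM in libraries labelled Sost-/- and 23.4 ± 8.53 CPM in libraries labelled Sost+/+ (log2 fold change -0.64, SE 0.24, edgeR adjusted p = 0.1922). Its near-identical copy H2-DMb2 was lower in every library, with a ratio to H2-DMb1 of 0.0805 to 0.139 and a log2 fold change of -0.61 (SE 0.28), and reads may be split between both copies. H2-Ob, the beta chain of the inhibitor H2-O, was the only one of the 10 whose groups did not overlap. H2-Ob was at 2.90, 2.39 and 2.27 CPM in libraries labelled Sost-/- and at 3.52, 2.92 and 5.11 CPM in libraries labelled Sost+/+ (log2 fold change -0.61, SE 0.24, edgeR adjusted p = 0.2022). Groups without overlap were found for 25.4% of all genes tested, 11.1% with the lower level in libraries labelled Sost-/-, so 1 of 10 is near that background. H2-Oa, the partner chain, rested on 31 to 59 counts a library and averaged 0.808 ± 0.0959 CPM in libraries labelled Sost-/- and 1.10 ± 0.453 CPM in libraries labelled Sost+/+ (SD, n = 3 each, log2 fold change -0.43, SE 0.35).

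Ciita, which encodes the coactivator of all these genes, ordered the 6 libraries exactly as the summed chains did. From high to low that order was Sost+/+ 3, Sost+/+ 1, Sost-/- 3, Sost-/- 2, Sost+/+ 2 and Sost-/- 1, and H2-Aa, H2-Eb1 and H2-DMa shared it. Ciita was at 4.35, 7.08 and 7.69 CPM in libraries labelled Sost-/- and at 8.99, 5.14 and 20.8 CPM in libraries labelled Sost+/+ (log2 fold change -0.86, SE 0.44, edgeR adjusted p = 0.3037). Across 6 libraries this is a description. Ciita lies on chromosome 16 from 10480059 to 10528418 and the annotation places another gene, Dexi, on the opposite strand of the same interval, so reads of both may not be told apart where strand was not used in counting.

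Sost+/+ 3 was the highest of the 6 libraries for 10 of 10 class II genes, as it was for 18.1% of all genes tested, and Sost-/- 1 was the lowest for 8 of 10, as for 13.8% of all genes. Both held at once for 8 of the 10 genes and for 3.47% of all genes. Without Sost+/+ 3 the class II median was -0.31, and without Sost-/- 1 it was -0.62. Without both libraries, an alternative chosen after seeing the data, it was -0.17, with H2-Aa at -0.11, H2-Ab1 at -0.34, Cd74 at -0.14, and Ciita and H2-Oa above 0 at 0.053 and 0.015. No class II gene passed the test in any of these fits.

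**Figure D2:**
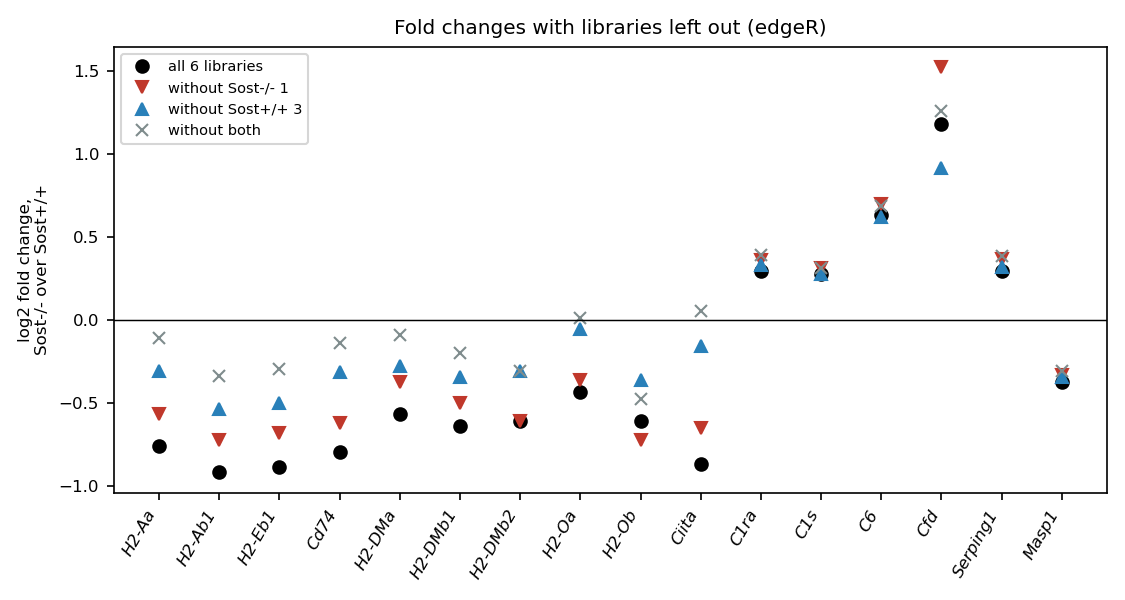
Log2 fold change of the libraries labelled Sost-/- over those labelled Sost+/+ (y axis) for the 10 class II genes and 6 complement genes (x axis), from all 6 libraries and with Sost-/- 1, Sost+/+ 3 or both left out. Class II values lie nearer 0 without Sost+/+ 3, with a median of -0.31 against -0.70. All 10 stay below 0 with either library alone left out, and Ciita and H2-Oa lie above 0 without both. C1ra, C1s and Masp1 keep their signs.

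T cell markers and the summed dendritic cell markers had the same highest and lowest library as most class II genes. The 7 T cell markers in the table summed to 14.0, 25.2 and 22.9 CPM in libraries labelled Sost-/- and to 33.5, 19.1 and 55.8 CPM in libraries labelled Sost+/+, and 0 of 7 were called in edgeR or DESeq2 (3 at an unadjusted p under 0.05), with Sost+/+ 3 highest and Sost-/- 1 lowest for all 7. Their median log2 fold change was -0.72, and Cd8a, a coreceptor of cytotoxic T cells, was at -1.33 (SE 0.55, edgeR adjusted p = 0.2193). The 10 dendritic cell markers summed to 63.9, 98.1 and 85.6 CPM in libraries labelled Sost-/- and to 75.9, 72.4 and 112 CPM in libraries labelled Sost+/+. Their sum was thus also highest in Sost+/+ 3 and lowest in Sost-/- 1. Of the 10, 0 were called in edgeR and 2 had an unadjusted p under 0.05 (1 higher, 1 lower), with a median log2 fold change of -0.42. The list was mixed, with 8 values below 0 and 2 above it, and Sost+/+ 3 was highest for the 8 below. Itgax, the CD11c integrin, was at -0.93 (SE 0.43, edgeR adjusted p = 0.2619). The lectin genes Clec10a, at 0.90 (SE 0.25, edgeR adjusted p = 0.09939), and Cd209a, at 0.53 (SE 0.24, edgeR adjusted p = 0.2642), lay above 0, and Clec10a was the 1 gene of the list that DESeq2 called, as higher. B cell markers were scarce, at 9.15 to 12.4 CPM summed over 8 genes in libraries labelled Sost-/- and 9.33 to 12.8 CPM in libraries labelled Sost+/+, with 0 of the 6 tested called in edgeR or DESeq2 or at an unadjusted p under 0.05. Macrophage markers were mixed too, with Sost+/+ 3 highest for 4 of 12, Sost-/- 2 for 3 and Sost-/- 3 for 3. The 12 genes summed to 891, 1449 and 1214 CPM in libraries labelled Sost-/- and to 1049, 940.0 and 1152 CPM in libraries labelled Sost+/+, with a median log2 fold change of 0.15. Of these 12, edgeR called 0, DESeq2 called 3 higher (Mrc1, Mertk and Cd163), and 5 had an unadjusted p under 0.05 (4 higher, 1 lower). The ratio of the summed chains to the summed macrophage markers was 0.363, 0.365 and 0.437 in libraries labelled Sost-/- and 0.721, 0.529 and 1.09 in libraries labelled Sost+/+, without overlap. The summed C1q chains, from the complement genes below, gave ratios to the same sum that did not overlap either. These were 0.473, 0.429 and 0.429 in libraries labelled Sost-/- and 0.526, 0.516 and 0.529 in libraries labelled Sost+/+. No background share was computed for such ratios. Lyz2 alone gave 340.3 to 748 CPM of that macrophage sum in libraries labelled Sost-/- and 414 to 478 CPM in libraries labelled Sost+/+. The part of T cells, dendritic cells or macrophages in the class II values was not tested.

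Other genes of class II display and its control had smaller fold changes, from -0.36 to 0.17. Of 23 such genes, among them the proteases Ctss and Lgmn, the reductase Ifi30, the X box and Y box factors and the interferon-gamma receptor chain genes, 22 were tested, 0 passed in edgeR or DESeq2, 0 had an unadjusted p under 0.05, 6 had a fold change above 0 and 16 below it, with a median of -0.060. Those of smallest p were Rfxap, a subunit of the X box factor, at 14.6 ± 2.80 CPM in libraries labelled Sost-/- and 17.5 ± 0.917 CPM in libraries labelled Sost+/+ (SD, n = 3 each, log2 fold change -0.26, SE 0.14, edgeR adjusted p = 0.3345), and Ifngr1, a receptor chain for interferon-gamma (log2 fold change -0.14, SE 0.09, edgeR adjusted p = 0.3914). H2-Ea-ps, the copy of the I-E alpha chain gene that C57BL/6 mice cannot express, was not tested. It had 0 counts in 5 libraries and 1 in Sost+/+ 3, and 0 counts allow up to 0.062 to 0.077 CPM (3 counts of a library's total, counting error only).

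Complement genes lay on the other side of 0 for the most part, with small fold changes. Of the 21 genes, 20 were tested and 0 passed in edgeR, 16 had a log2 fold change above 0 and 4 below it, and the median was 0.19. Sost-/- 2 was the highest library for 9 of the 20 (16.8% of all genes) and Sost-/- 3 for 7 (20.2%). At an unadjusted p under 0.05 there were 6 with the higher and 1 with the lower level in libraries labelled Sost-/-, against 11.6% and 8.62% of all genes tested. That count of 7 was 10 of 21 tested without Sost-/- 1, 6 without Sost-/- 2 and 3 without Sost-/- 3. It was 4 without Sost+/+ 1, 5 without Sost+/+ 2, 7 without Sost+/+ 3 and 13 of 21 tested without both Sost-/- 1 and Sost+/+ 3. Over all genes, 3051 of 15323 had such a p without Sost-/- 1 and 1714 of 15277 without Sost-/- 3. The same held for 2262 of 15349 without Sost+/+ 1 and 3439 of 15233 without both. Groups did not overlap for 5 of the 20 genes (4 higher, 1 lower), against 25.4% of all genes (14.3% higher, 11.1% lower), a share near the background. DESeq2 called 2 of them, C1s higher and Masp1 lower, where it called 7.64% of all genes (4.96% higher, 2.68% lower).

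**Figure D3:**
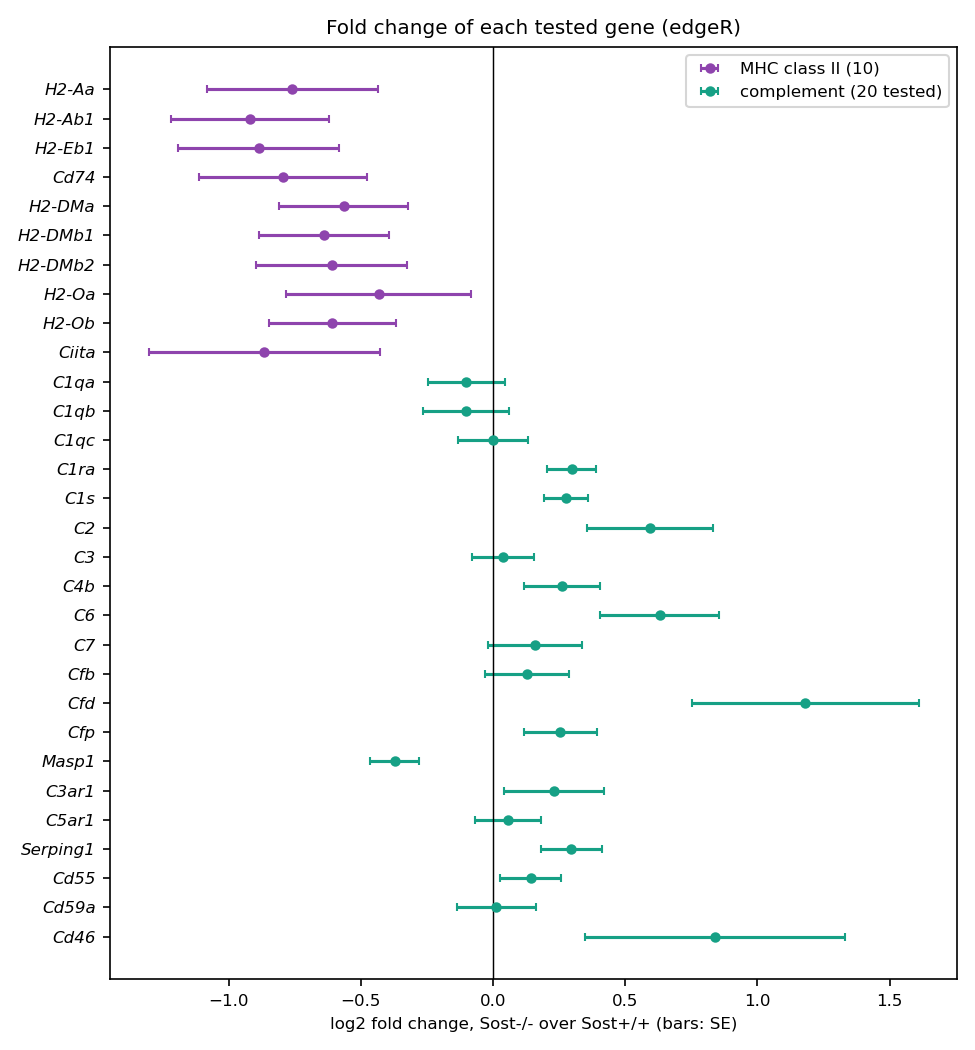
Log2 fold change of the libraries labelled Sost-/- over those labelled Sost+/+ (x axis, bars are SE) for each of the 30 tested genes, class II genes above and complement genes below. The 10 class II values lie between -0.92 and -0.43, and 16 of the 20 complement values lie above 0.

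The recognition molecule and the proteases of C1 differed in their pattern. C1q is built from the products of C1qa, C1qb and C1qc, which lie together on chromosome 4. C1qa (136895917 to 136898803, minus strand) was at 155, 231 and 185 CPM in libraries labelled Sost-/- and at 215, 181 and 217 CPM in libraries labelled Sost+/+, a log2 fold change of -0.10 (SE 0.15). C1qb was at -0.10 (SE 0.16) and C1qc at -0.00040 (SE 0.13), and all 3 were above 0 without Sost-/- 1, at 0.027 for C1qa, 0.053 for C1qb and 0.10 for C1qc. As with the class II chains, proportions varied less than levels, with a ratio of C1qb to C1qa of 0.934 to 1.06 and of C1qc to C1qa of 0.639 to 0.781. The proteases C1r and C1s, which C1q activates, were each higher in every library labelled Sost-/- than in any labelled Sost+/+. C1ra (chromosome 6, 124512405 to 124523443) was at 89.4, 101 and 106 CPM in libraries labelled Sost-/-, against 75.4, 80.7 and 84.9 CPM in libraries labelled Sost+/+ (log2 fold change 0.30, SE 0.09, edgeR adjusted p = 0.1323). C1s (chromosome 6, 124530345 to 124542359, overlapped on the opposite strand by Gm16567) was at 167, 183 and 181 CPM in libraries labelled Sost-/-, against 143, 148 and 148 CPM in libraries labelled Sost+/+ (log2 fold change 0.28, SE 0.08, edgeR adjusted p = 0.1199, DESeq2 adjusted p = 0.04266). With libraries left out, the value of C1s was 0.246 to 0.315. C1rb, the near copy of C1ra, had at most 2 counts in a library, and the C1s copy C1s2, listed as Gm5077, 1 to 17.

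**Figure D4:**
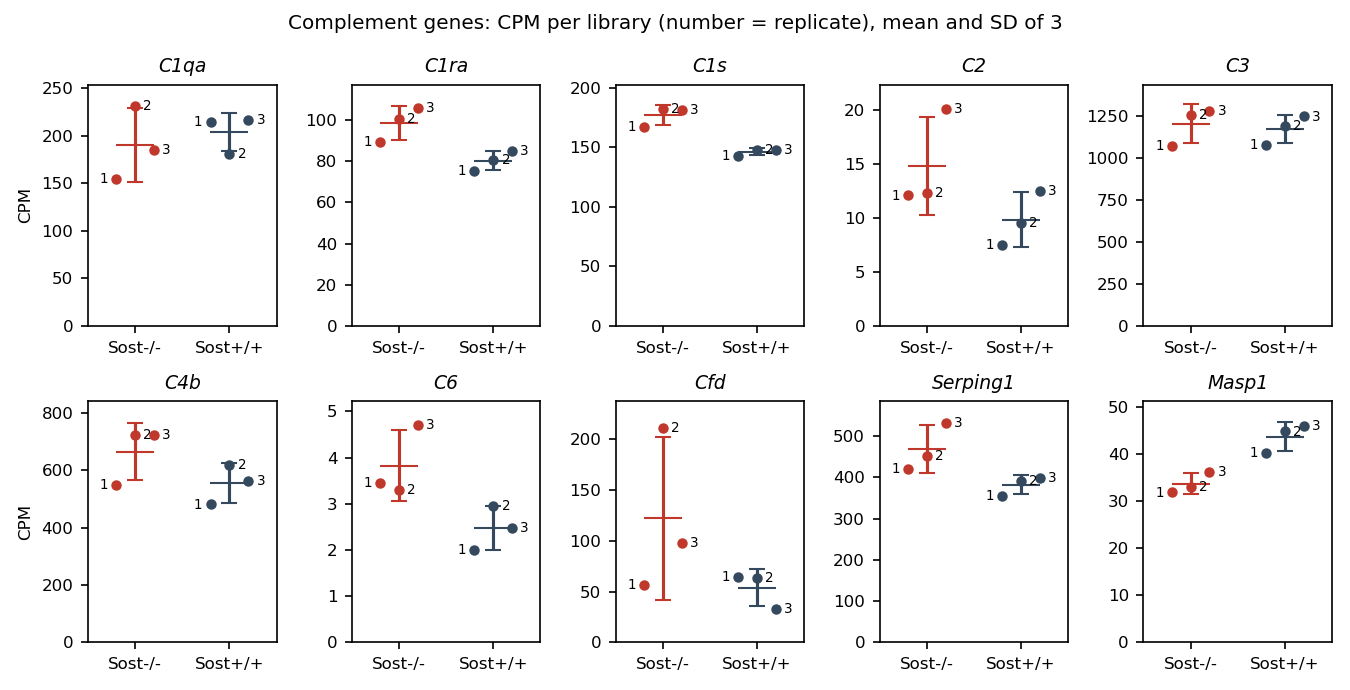
Levels of 10 complement genes in CPM (y axis, from 0) in libraries labelled Sost-/- and Sost+/+. Points are libraries with their replicate number, bars the mean and SD of 3. C1ra, C1s, C6 and Serping1 show no overlap with the Sost-/- label higher and Masp1 none with it lower, while Cfd reaches 211 CPM in Sost-/- 2 against 56.8 CPM in Sost-/- 1.

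Downstream of C1, C3 had the highest level per length of the complement genes, with a mean of 234 CPM per kilobase in libraries labelled Sost-/- and 228 CPM per kilobase in libraries labelled Sost+/+. C3, the hub of the cascade (chromosome 17, 57203970 to 57228136), was at 1070, 1259 and 1281 CPM in libraries labelled Sost-/- and at 1080, 1191 and 1248 CPM in libraries labelled Sost+/+ (log2 fold change 0.037, SE 0.12, and -0.033 without Sost+/+ 1). Both groups covered nearly the same range. C4b, the fourth component, averaged 664 ± 100 CPM in libraries labelled Sost-/- and 554 ± 69.4 CPM in libraries labelled Sost+/+ (SD, n = 3 each, log2 fold change 0.26, SE 0.14, edgeR adjusted p = 0.3397), while its close relative C4a had 23 to 55 counts a library. C2, the protease that joins C4b, was at 12.1, 12.3 and 20.1 CPM in libraries labelled Sost-/- and at 7.47, 9.51 and 12.5 CPM in libraries labelled Sost+/+ (log2 fold change 0.59, SE 0.24, edgeR adjusted p = 0.2081). Only Sost-/- 3 stood above all libraries labelled Sost+/+ for C2, and without it the value was 0.31. The gene model Gm20547 runs over C2 and its neighbour Cfb on the same strand, so their reads may be shared.

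Of the terminal components, which build the membrane pore, C6 did not overlap between the groups and C7 did. C6 was at 3.46, 3.31 and 4.70 CPM in libraries labelled Sost-/-, against 1.996, 2.95 and 2.47 CPM in libraries labelled Sost+/+ (89 to 197 counts a library, log2 fold change 0.63, SE 0.22, edgeR adjusted p = 0.1671). C7 averaged 77.2 ± 20.5 CPM in libraries labelled Sost-/- and 69.2 ± 6.31 CPM in libraries labelled Sost+/+ (SD, n = 3 each, log2 fold change 0.16, SE 0.18).

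The alternative pathway held the complement gene of widest spread. Cfd, which encodes the protease adipsin, a product of fat cells, was at 56.8, 211 and 98.1 CPM in libraries labelled Sost-/- and at 64.9, 63.7 and 32.7 CPM in libraries labelled Sost+/+ (log2 fold change 1.18, SE 0.43, edgeR adjusted p = 0.1733). Sost-/- 2 alone was above 200 CPM, and without it the value was 0.52. Adipoq, the adiponectin gene of fat cells, was also highest in Sost-/- 2 and lowest in Sost+/+ 3, at 25.0, 82.0 and 46.8 CPM in libraries labelled Sost-/- and 28.1, 21.01 and 8.18 CPM in libraries labelled Sost+/+, and the ratio of Cfd to Adipoq lay between 2.10 and 4.00. The adipocyte list as a whole had 0 of 8 markers called in edgeR or DESeq2 (5 at an unadjusted p under 0.05), a median log2 fold change of 1.05 and a summed level, led by Lpl, of 3827 to 4506 CPM in libraries labelled Sost-/- and 3581 to 5265 CPM in libraries labelled Sost+/+. The part of fat tissue in the Cfd value was not tested. Cfb, which supplies the protease of the alternative convertase, was at 0.13 (SE 0.16, and -0.063 without Sost-/- 2), and Cfp, the stabilizer properdin, at 0.25 (SE 0.14, edgeR adjusted p = 0.3392).

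Masp1, a protease of the lectin pathway, had the smallest adjusted p of the 31 genes and stood below 0. Masp1 (chromosome 16, 23449417 to 23520815, minus strand) was at 31.9, 33.1 and 36.3 CPM in libraries labelled Sost-/-, against 40.3, 44.8 and 46.0 CPM in libraries labelled Sost+/+. The groups did not overlap, and the log2 fold change was -0.37 (SE 0.09, edgeR adjusted p = 0.07475, DESeq2 adjusted p = 0.01503). Every alternative gave the same sign, with -0.44 to -0.30 when libraries were left out. Gene counts do not separate the products that Masp1 makes by splicing.

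The receptors for the released fragments overlapped between the groups. C3ar1, the receptor for C3a, averaged 18.4 ± 3.32 CPM in libraries labelled Sost-/- and 15.7 ± 3.63 CPM in libraries labelled Sost+/+ (SD, n = 3 each, log2 fold change 0.23, SE 0.19). C5ar1, the receptor for C5a on myeloid cells, averaged 18.7 ± 2.93 CPM in libraries labelled Sost-/- and 17.95 ± 1.04 CPM in libraries labelled Sost+/+ (log2 fold change 0.056, SE 0.12, and -0.077 without Sost-/- 3).

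Inhibitors had fold changes above 0, of which that of Serping1 came from groups without overlap. Serping1, the C1 inhibitor that binds C1r and C1s (chromosome 2, 84765387 to 84775444), was at 420.3, 452 and 532 CPM in libraries labelled Sost-/-, against 355, 392 and 398 CPM in libraries labelled Sost+/+ (log2 fold change 0.30, SE 0.12, edgeR adjusted p = 0.1988). Serping1 and its targets thus stood in the same order of groups, and the ratio of Serping1 to C1s was 2.48 to 2.93 over the libraries. Cd55, which breaks up convertases, was at 0.14 (SE 0.12), and Cd59a, which blocks the pore, at 0.013 (SE 0.15, and -0.15 without Sost+/+ 3). Cd46, known in mice mainly from the testis, had 8 to 46 counts a library (log2 fold change 0.84, SE 0.49). Cfi, the factor I protease that cleaves C3b, was the 1 gene that failed the filter on low counts, with 7, 22 and 12 counts in libraries labelled Sost-/- and 11, 7 and 7 in libraries labelled Sost+/+.

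**Figure D5:**
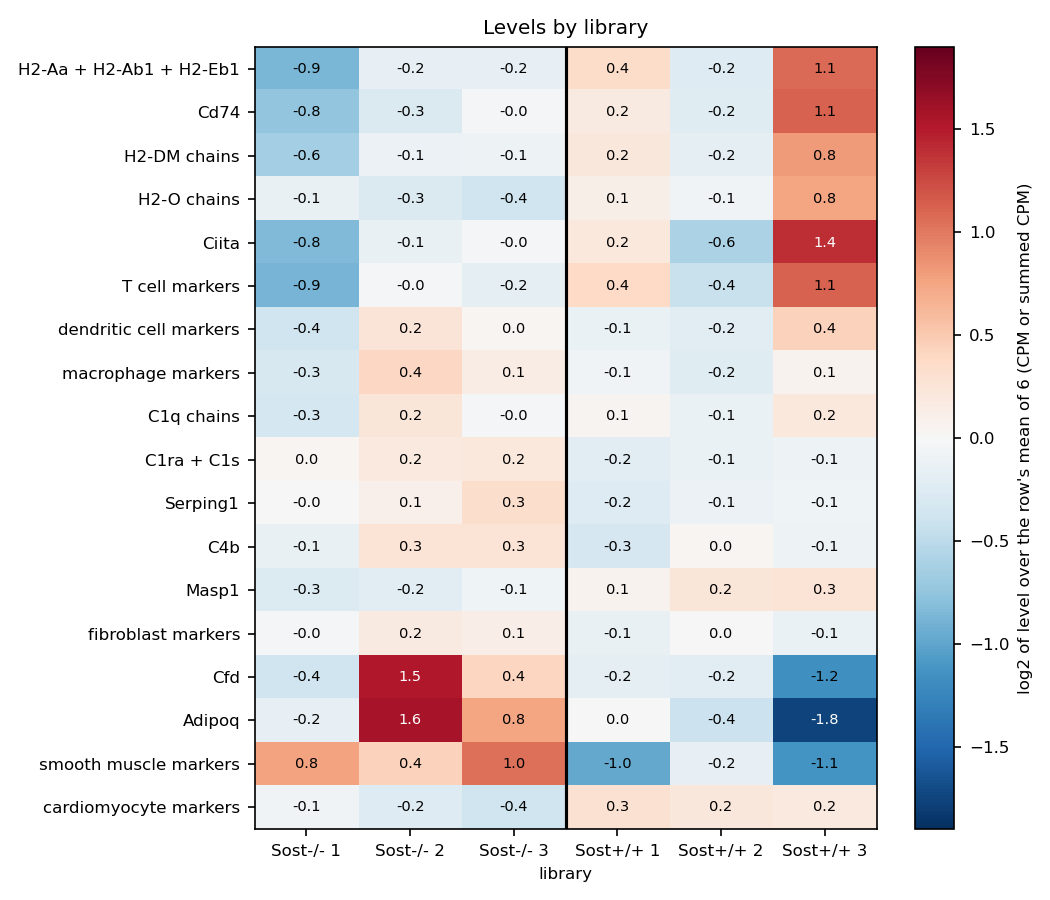
Levels by library (columns) for class II genes, complement genes and marker lists (rows). Each value is the log2 of CPM or summed CPM minus the row's mean of these log2 values over the 6 libraries. Red is above that mean and blue below it. The summed class II chains, Cd74, the summed H2-DM chains and Ciita are highest in Sost+/+ 3 and lowest in Sost-/- 1. So are the summed T cell markers, the summed dendritic cell markers and Masp1. The summed H2-O chains are highest in Sost+/+ 3 and lowest in Sost-/- 3. Cfd and Adipoq are highest in Sost-/- 2.

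Fibroblast markers, from cells known to make C1r, C1s, C4b and the C1 inhibitor, summed to 8970 to 10280 CPM in libraries labelled Sost-/- and 8271 to 9217 CPM in libraries labelled Sost+/+, with 0 of 10 called in edgeR, 3 called higher in DESeq2 (the same number at an unadjusted p under 0.05) and a median log2 fold change of 0.23. The ratio of C1ra and C1s to that sum was 0.0276 to 0.0289 in libraries labelled Sost-/- and 0.0248 to 0.0276 in libraries labelled Sost+/+. Hepatocyte markers, the other classic source, were near the limit of detection, at 0.370 to 0.650 CPM for all 5 together over the 6 libraries, and Fgb had 0 counts in each. The part of fibroblasts in these values was not tested.

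Of 35 further complement genes, 23 were tested and 1 passed, against 2.55% of all genes. Colec12, a membrane collectin and scavenger receptor, rose to 93.2 ± 4.00 CPM in libraries labelled Sost-/-, against 64.4 ± 7.45 CPM in libraries labelled Sost+/+ (SD, n = 3 each, log2 fold change 0.53, SE 0.10, edgeR adjusted p = 0.03244). The groups did not overlap, with 88.7, 96.3 and 94.6 CPM in libraries labelled Sost-/- and 56.4, 66.0 and 71.0 CPM in libraries labelled Sost+/+. With all 6 libraries DESeq2 called it too (adjusted p = 0.0004349), but the edgeR call was lost without Sost-/- 2 (0.51, adjusted p = 0.08342), Sost-/- 3 (0.52, adjusted p = 0.1425), Sost+/+ 1 (0.43, adjusted p = 0.1182) or Sost+/+ 2 (0.55, adjusted p = 0.07643). Fcna, a ficolin that starts the lectin pathway and is known from macrophages, did not pass in edgeR but was called higher in DESeq2, at 14.7, 20.9 and 18.5 CPM in libraries labelled Sost-/- and 9.69, 12.9 and 8.70 CPM in libraries labelled Sost+/+ (log2 fold change 0.78, SE 0.18, edgeR adjusted p = 0.05555), and was named after its values were seen. The median of the 23 was 0.078, with 13 values above and 10 below 0.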

How the data were processed

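The authors deposited whole-number read counts per gene symbol and a table of normalized signal. In that table each library's counts stand divided by a single factor, equal to the size factor DESeq2 gives. DRAGEN, HTSeq, DESeq2 and the build mm10 are named, without roles, in the submitters' processing notes. Their versions, the annotation release and how counting used strand were not given in the sources used here. Per-length levels therefore assume GENCODE's exons, and the library kit was directional, per the labels' protocols. Samples were grouped by the genotype label and numbered in accession order. No label ties a root to an animal, and a p-value here reflects only how these 6 roots vary, which may be in part technical. No pair of libraries within a group agreed within sampling noise (chi-square per degree of freedom 32.3 to 61.5).

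A gene was tested if filterByExpr kept it at a minimum count of 10 and a minimum total of 15 (15096 of 23420 genes). After TMM scaling, edgeR 4.0.16 in R 4.3.3 supplied the quasi-likelihood test (glmQLFit and glmQLFTest), and p-values were adjusted by the Benjamini-Hochberg method over every gene tested, at 0.05. The SE is the absolute log2 fold change divided by the square root of F. Depth was 37023586 to 48172863 counts and the common biological coefficient of variation 0.141. The step was tested on simulated data. Limits of detection cover counting error only, whereas each SE and SD includes variation between libraries. Alternatives were other scalings and filters, DESeq2 1.42.0, limma-voom and limma 3.58.1 on log2(deposited normalized value + 1), and each library left out. All 31 members were to be named, with the list genes that passed or the 2 of smallest p. Single marker genes and class I genes were named after their values were seen. Members and lists were chosen with earlier results of these data known. Of 199 list entries, 197 were in the table, 4 by an older symbol in RefSeq. Gene coordinates and exon lengths came from GENCODE M21, which uses GRCm38 (mm10).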

Additional observations from a re-analysis of the deposited data

How the results depend on the processing

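No class II gene was called under any alternative, and of the complement genes DESeq2 called 2, C1s (0.27) and Masp1 (-0.38), and the other alternatives 0. The count over all genes was 385 in edgeR, 1159 in DESeq2, 567 without a filter on low counts, and 0 to 349 with 1 library left out: 0 without Sost+/+ 1 (2262 at an unadjusted p under 0.05), 10 without Sost-/- 3, 118 without Sost+/+ 3, 218 without Sost-/- 2 and 140 without both Sost-/- 1 and Sost+/+ 3, an alternative chosen after seeing the data. The class II median, -0.70, ran from -0.96 to -0.31 with 1 library left out and was -0.17 without both, and the complement median, 0.19, ran from 0.14 to 0.36 and was 0.38 without both. The further complement genes called numbered 4 in DESeq2, 2 without the filter, 0 to 4 with 1 library left out (4 without Sost-/- 1, 0 without Sost-/- 2, Sost-/- 3 or Sost+/+ 1), and 0 without both libraries.

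Among class II genes the sign turned only without both Sost-/- 1 and Sost+/+ 3, for Ciita (0.053, against -0.86 with all libraries) and H2-Oa (0.015, against -0.43). In that fit C1qa was at 0.065, C1qb at 0.15, C1qc at 0.20 and Cd59a at -0.17. With 1 library left out, C1qa ran from -0.27 to 0.027, C1qb from -0.25 to 0.053, C1qc from -0.11 to 0.10, C3 from -0.033 to 0.11, Cfb from -0.063 to 0.29, C5ar1 from -0.077 to 0.14 and Cd59a from -0.15 to 0.18. C1qc was at 0.0038 with a minimum count of 30. The cause was not tested. No paired analysis was possible because the labels give no replicate numbers shared between the groups. Genes with few counts, such as Cfi, Cd46 and H2-Oa, are limited by depth.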

Other observations

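MHC class I genes, which display peptides from inside the cell, shared their highest library with the class II genes. Of 9 class I pathway genes, 0 were called in edgeR (2.55% of all genes) and 1 in DESeq2 (7.64%). An unadjusted p under 0.05 was found for 1 (20.2%). All 9 had a fold change below 0 (48.7% of all genes), with a median of -0.32. Sost+/+ 3 was the highest library for each of the 9 (18.1%) and Sost-/- 1 the lowest for 6 (13.8%). Both held at once for 6 of the 9 (3.47%). H2-K1, a classical heavy chain and the 1 that DESeq2 called, was at 416, 547 and 461 CPM in libraries labelled Sost-/- and at 626, 527 and 863 CPM in libraries labelled Sost+/+ (log2 fold change -0.50, SE 0.18, edgeR adjusted p = 0.1744, DESeq2 adjusted p = 0.04015). Nlrc5, the class I counterpart of Ciita, was at 14.1, 17.3 and 15.3 CPM in libraries labelled Sost-/- and at 16.9, 13.2 and 36.1 CPM in libraries labelled Sost+/+ (log2 fold change -0.50, SE 0.31, edgeR adjusted p = 0.4085).

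H2-Eb2, a class II beta chain gene outside the 31 and named after its values were seen, had 12, 8 and 13 counts in libraries labelled Sost-/-, against 42, 20 and 50 in libraries labelled Sost+/+ (log2 fold change -1.82, SE 0.45, edgeR adjusted p = 0.07257). Its groups did not overlap, and part of its reads could belong to the related H2-Eb1.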
